A study of Mus musculus with 38 samples.

Results

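Base-unpairing regions (BURs) that carried a SATB1 urea ChIP-seq peak in thymocytes and in brain, and none in skin, numbered 16782 of the 232068 BURs on chromosomes 1 to 19 and X, or 7.23% of the map. Membership was chosen by the peak lists themselves: a BUR had to share at least 1 bp with a peak in both thymocyte and both brain replicates and with no peak in either skin replicate, so the presence of thymocyte and brain peaks and the absence of skin peaks are given as a description and are not tested. These BURs made up 65.5% of the 25639 BURs with a peak in all 4 thymocyte and brain lists and 63.9% of the 26260 BURs with a peak in both thymocyte replicates. The nearest classes were the 6646 BURs with a peak in both replicates of all 3 tissues and the 37368 with a peak in both brain replicates alone, and 137925 BURs had a peak in none of the 6 lists.

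BURs are AT-rich stretches of genomic DNA in which runs of A, T and C without G (or A, T and G without C, read from the other strand) lie close together, and they unpair readily when the double helix is under torsional strain. SATB1 is a nuclear protein that recognises such DNA and organises chromatin. It is abundant in thymocytes, where it is needed for T-cell development, and it is also present in cortical neurons and in basal keratinocytes of the epidermis. In urea ChIP-seq, cells are fixed with formaldehyde and their chromatin is stripped in concentrated urea and spun down ahead of the immunoprecipitation, so that only proteins crosslinked directly to DNA remain on it.

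All mice were C57BL/6 with wild-type Satb1, and each urea SATB1 group had 2 libraries, all precipitated with the home-made antibody 1583D. The thymocytes came from mice labelled as 13 days old, with 4 µl of antibody in replicate 1 and 2 µl in replicate 2. The 2 brain libraries are labelled 5 and 6 weeks and were amplified for 10 and 12 cycles, but their protocol text describes cortex of mice 13 days old. The skin libraries are labelled 13 days, whereas their protocol text describes epidermal keratinocytes taken at 5 days, and they differed in sonication time, 55 s and 60 s. The study's methods give other ages again, adult mice for brain and newborns for skin, so the age of the brain and skin samples is uncertain. The map itself is 1 list, made in vitro from thymocyte DNA and recombinant SATB1. The study's reporting checklist describes replicates as cells from different animals without naming an assay, and the labels do not say so for these libraries, so the p-values measure the spread between libraries, of which part may be technical. The lists held 45049 and 38882 peaks in thymocytes, 117963 and 109154 in brain and 11210 and 10846 in skin. They give no read counts and no expression, so that depth is unknown and the labelled tissues could not be checked against marker transcripts.

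The sequences of 5 of these BURs, and of 1 BUR bound in all 3 tissues, show the DNA that SATB1 was found on. Each is the plus strand of NCBIM37/mm9, 300 bp centred on the in vitro summit, and capitals mark the longest stretch in the window that lacks C or lacks G. The first had the highest mean enrichment of all members, the next pair had the smallest p for thymocytes over brain and for brain over thymocytes, the Satb1 and Cdh8 windows were the most enriched members at genes of a T-cell and of a neuronal list, and the Pak3 window was the most enriched BUR of all 3 tissues.
Depdc1a neighbourhood, chr3:158895251-158895550: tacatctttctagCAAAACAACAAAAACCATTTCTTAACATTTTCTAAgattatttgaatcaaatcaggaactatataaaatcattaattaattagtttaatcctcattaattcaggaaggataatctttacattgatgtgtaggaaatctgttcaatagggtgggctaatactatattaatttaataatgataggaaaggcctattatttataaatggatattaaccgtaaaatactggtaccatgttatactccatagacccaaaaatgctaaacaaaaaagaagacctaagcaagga
Pou4f1 neighbourhood, chr14:104731094-104731393: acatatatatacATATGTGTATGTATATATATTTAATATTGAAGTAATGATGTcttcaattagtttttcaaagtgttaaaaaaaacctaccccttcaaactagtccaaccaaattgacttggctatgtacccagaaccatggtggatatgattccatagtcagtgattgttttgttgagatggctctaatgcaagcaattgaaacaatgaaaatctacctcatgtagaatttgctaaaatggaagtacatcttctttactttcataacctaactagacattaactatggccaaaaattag
St8sia4 neighbourhood, chr1:97661816-97662115: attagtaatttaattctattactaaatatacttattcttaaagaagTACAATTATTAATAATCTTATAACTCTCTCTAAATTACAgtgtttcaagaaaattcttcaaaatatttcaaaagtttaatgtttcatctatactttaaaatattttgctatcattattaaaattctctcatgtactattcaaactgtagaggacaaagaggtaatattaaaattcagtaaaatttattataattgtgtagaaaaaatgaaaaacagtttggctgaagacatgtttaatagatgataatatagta
Satb1 intron, chr17:51937424-51937723: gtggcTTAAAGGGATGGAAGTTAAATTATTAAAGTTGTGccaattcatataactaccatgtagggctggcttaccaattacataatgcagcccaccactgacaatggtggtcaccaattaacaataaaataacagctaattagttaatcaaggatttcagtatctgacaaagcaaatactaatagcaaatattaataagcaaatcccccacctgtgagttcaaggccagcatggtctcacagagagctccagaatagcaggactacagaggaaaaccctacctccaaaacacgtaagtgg
Cdh8 intron, chr8:101806636-101806935: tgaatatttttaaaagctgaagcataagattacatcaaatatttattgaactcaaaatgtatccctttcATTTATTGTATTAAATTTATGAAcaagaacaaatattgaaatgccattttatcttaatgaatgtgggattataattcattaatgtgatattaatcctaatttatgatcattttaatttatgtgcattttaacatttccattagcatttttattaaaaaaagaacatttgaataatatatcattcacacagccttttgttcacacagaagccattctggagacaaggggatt
Pak3, bound in all 3 tissues, chrX:139917470-139917769: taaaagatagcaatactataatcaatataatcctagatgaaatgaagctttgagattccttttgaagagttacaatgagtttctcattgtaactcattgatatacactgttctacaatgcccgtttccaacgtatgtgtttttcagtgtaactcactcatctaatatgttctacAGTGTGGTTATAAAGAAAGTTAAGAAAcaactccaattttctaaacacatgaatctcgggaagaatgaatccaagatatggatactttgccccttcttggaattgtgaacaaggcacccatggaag
The capital stretches run over 35, 41, 39, 34, 23 and 27 bases in that order. The AT content of the 5 member windows ranged from 60.3% at Satb1 to 79.3% at St8sia4, and that of the Pak3 window was 65.7%.

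Among BURs bound in thymocytes and brain, the absence of skin peaks moved with the enrichment in thymocytes. Both come from the lists that the rule used, so this is a description and was not tested. The 25639 BURs with peaks in all 4 lists were ranked by their mean fold enrichment in thymocytes, where fold enrichment is the ratio of the ChIP-seq signal at the peak summit to the local background that the peak caller estimated. In the lowest quartile 95.8% lacked a skin peak, in the second 88.5%, in the third 63.1% and in the highest 14.4%. Ranked by enrichment in brain, the share fell over a narrower range, from 77.4% in the lowest quartile to 43.8% in the highest. The skin lists were also the shortest. When each of the 6 urea lists was cut to its 10846 strongest peaks by −log10 q, the size of the shortest list, 1166 BURs met the rule and 1126 of the original members remained, or 6.71%. This cut by construction keeps fewer thymocyte and brain peaks and nearly all skin peaks, so the count had to fall whatever skin showed. The part of list size and of depth in the absence of skin peaks was not tested.

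**Figure D1:**
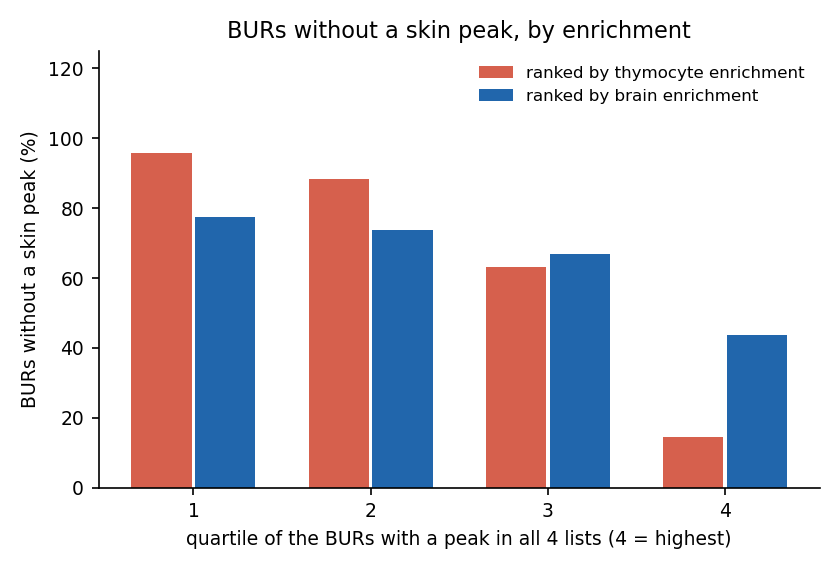
Share of BURs without a peak in either skin replicate, in percent, among the 25639 BURs with a peak in all 4 thymocyte and brain lists, by quartile of the mean fold enrichment in thymocytes (red) or in brain (blue). Over the quartiles by thymocyte enrichment the share goes from 95.8% down to 14.4%.

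At the edges of the rule, 147 members (0.876%) had a skin peak within 1 kb that did not touch the BUR, with median thymocyte enrichments of 7.31 and 6.43 in replicates 1 and 2 and brain enrichments of 10.2 in both. Just outside it lay 2211 BURs with a peak in 1 skin replicate, 1215 in replicate 1 and 996 in replicate 2, and the median enrichment of that skin peak was 5.24. Their thymocyte enrichments were 12.8 and 12.3 and their brain enrichments 14.3 and 14.2 in the median. A further 9540 BURs missed the rule because only 1 thymocyte replicate had a peak, in 7034 cases replicate 1 and in 2506 replicate 2, with a median thymocyte enrichment of 5.33. The median distance from a member to the nearest skin peak was 56.9 kb. The rule bars a skin peak on the BUR and the skin lists are the shortest, so this distance is a description. It has no value for other BURs beside it.

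Members had higher fold enrichments in brain than in thymocytes on the scale of the lists, which are not scaled to each other. Over all BURs with a peak in the 4 lists, median log2 values were 3.35 and 3.22 in thymocytes and 3.81 and 3.78 in brain. The median fold enrichment of members was 8.38 and 7.37 in thymocyte replicates 1 and 2, and 13.0 and 12.7 in brain replicates 1 and 2. Their 5th and 95th percentiles were 4.83 and 15.8 in thymocyte replicate 1 and 5.94 and 20.9 in brain replicate 1. BURs of all 3 tissues had medians of 18.1 and 18.8 in thymocytes and 17.2 and 16.9 in brain, beside 10.2 and 9.62 in skin. Brain-only BURs had 7.21 and 6.86 in brain. Members therefore stood between these classes in brain, while in thymocytes their upper quartiles, 11.1 and 9.88, were under the medians of the BURs of all 3 tissues. These classes are themselves defined by the lists, so the order of their enrichments is a description.

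**Figure D2:**
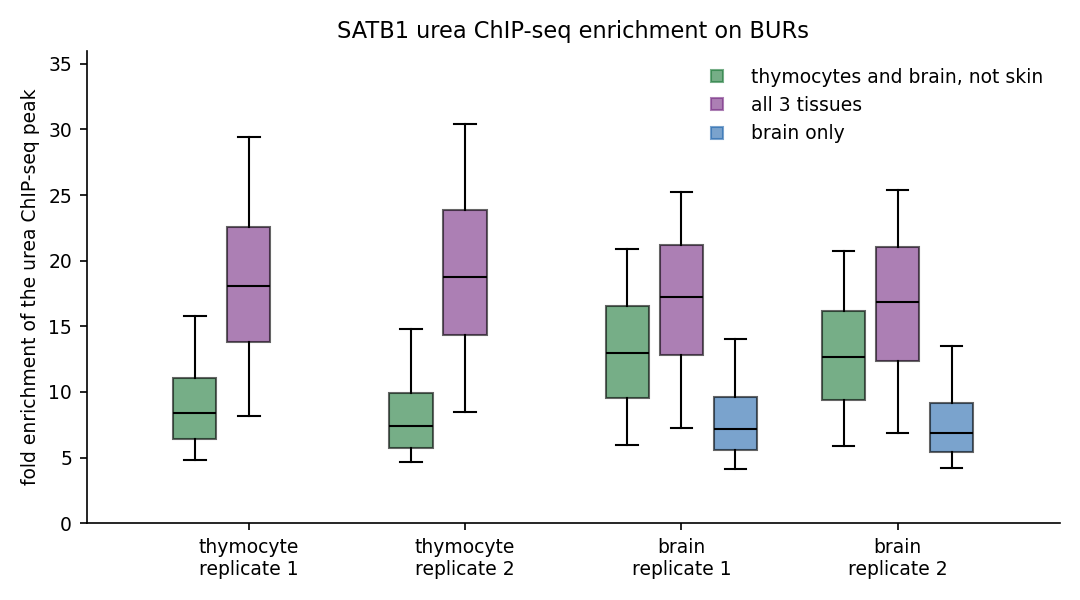
Fold enrichment of the urea ChIP-seq peak on the BUR in each of the 4 libraries, for BURs bound in thymocytes and brain but not skin (green), in all 3 tissues (purple) and in brain only (blue). Boxes span the quartiles with the median as a line, and whiskers reach the 5th and 95th percentiles. In thymocytes the green medians are 8.38 and 7.37 and the purple ones 18.1 and 18.8.

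Across the 16782 members, enrichments were ordered alike within a tissue and less so between tissues. Spearman's rho between replicates was 0.720 in thymocytes and 0.887 in brain, and between a thymocyte and a brain library it ranged from 0.312 to 0.487. These are correlations over BURs that share their libraries, given as a description. The summits of the peaks fell on nearly the same bases. The median distance between summits was 27 bp for the thymocyte replicates, 26 bp for the brain replicates and 29 to 32 bp between a thymocyte and a brain library. From the in vitro summit they lay a median of 36 bp away in both thymocyte replicates and 31 and 32 bp away in brain, and 63.0% to 68.4% of the members had their in vivo summit within 50 bp of the in vitro one.

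The strength of binding to naked DNA in vitro was not used by the rule, although the presence of an in vitro peak defines every BUR. The median in vitro fold enrichment was 8.15 for members, 10.2 for BURs of all 3 tissues, 6.40 for brain-only BURs and 5.29 for BURs with a peak in none of the lists. When all BURs were divided into deciles by their in vitro enrichment, members made up 1.70% of the lowest decile, 6.00% of the fifth, 13.0% of the ninth and 12.5% of the highest. BURs of all 3 tissues went on from 5.67% in the ninth decile to 9.88% in the highest, and brain-only BURs peaked at 21.2% in the seventh. Even in the highest decile, 51.3% of the BURs had no peak in any list. Within the members, the in vitro enrichment correlated with that in brain (rho of 0.549 and 0.506) more than with that in thymocytes (0.225 and 0.196), again as a description over BURs.

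**Figure D3:**
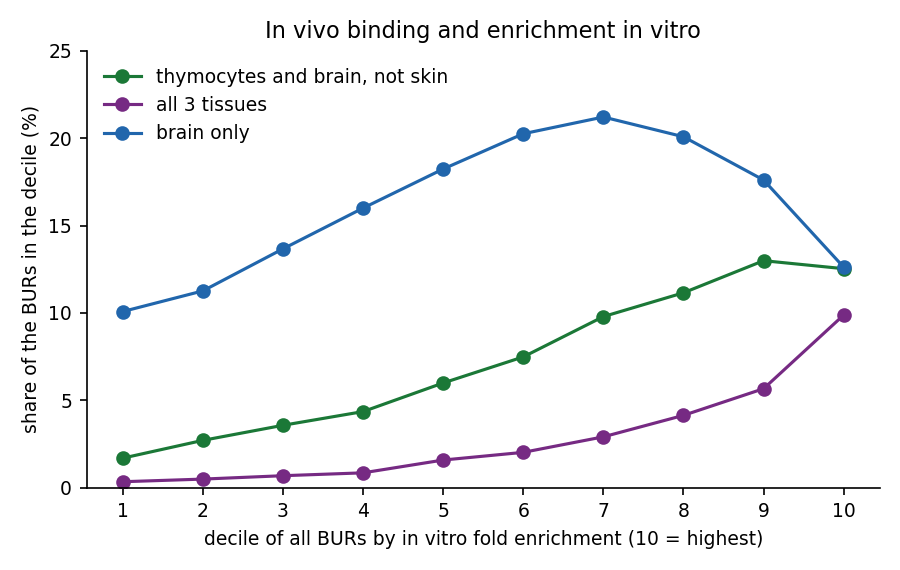
Share of BURs, in percent, that were bound in thymocytes and brain but not skin (green), in all 3 tissues (purple) or in brain only (blue), in each decile of the 232068 BURs ordered by in vitro fold enrichment. The green line climbs from 1.70% to 13.0% in the ninth decile and stands at 12.5% in the highest.

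In AT content and length, members lay between the BURs of all 3 tissues and the brain-only BURs. Their median AT content over the whole BUR was 69.9%, beside 68.0% and 71.4%, and 70.7% for all BURs. Their median length was 491 bp, beside 514 and 466 bp, and 439 bp for all BURs. Length bears on the rule, since a longer BUR has more bases on which a peak can overlap it. The longest stretch lacking C or G in the 300 bp around the summit had a median of 35 bp in members, 38 bp in BURs of all 3 tissues, 35 bp in brain-only BURs and 44 bp in BURs with no peak in any list. By AT content of the same window, members made up 2.43% of the BURs under 60% AT, 8.64% of those from 65% to 70%, 7.44% of those from 75% to 80% and 6.03% of those over 80%. The letters ATATAT, which read the same on both strands, stood in 37.3% of the member windows, 31.2% of those of all 3 tissues, 41.1% of the brain-only windows and 41.2% of all BUR windows. AATATATTT, searched on both strands and containing ATATAT, was in 5.85% of the member windows and 6.55% of all. No spread between replicates exists for these differences, since the map is 1 list.

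Most members lay outside genes. In the GENCODE annotation of the same build, 34.3% overlapped an annotated gene body, beside 37.5% of the BURs of all 3 tissues and 34.2% of all BURs. An exon was overlapped by 3.84%, coding sequence by 2.38% and an untranslated region by 1.45%. The nearest protein-coding gene start was a median of 166 kb away, farther than for all BURs (135 kb) and for BURs of all 3 tissues (114 kb) and nearer than for brain-only BURs (183 kb). Of the members, 23.0% had no protein-coding gene start in the 1 Mb around them and 4.58% lay within 5 kb of one, beside 19.9% and 5.03% of all BURs.

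Of the BURs next to a member on the chromosome, 6.82% were members too, beside 7.23% of all BURs. Members had their nearest fellow member a median of 34.7 kb away. The gaps between adjacent BURs of any class had a median of 5.85 kb, a different measure from the distance to the nearest. Their share of the BURs of a chromosome ran from 5.83% on chromosome 7 to 8.16% on chromosome 14, and was 6.84% on chromosome X. Of 2581 bins of 1 Mb with a BUR, 2393 held a member, with a median of 5. The densest bin, chr14:90000001-91000000, held 34 members among 260 BURs and 1 protein-coding gene start, that of the predicted gene Gm10110. The bins chr15:17000001-18000000 and chr17:61000001-62000000 held 31 each, and chr14:89000001-90000000, chr3:44000001-45000000 and chr6:62000001-63000000 held 30 each, all without a protein-coding gene start. BURs were numerous in these bins, from 206 to 260, and members made up 12.1% to 14.6% of them, over the 7.23% of the map, in bins picked for holding most members.

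Whether a member was bound more in one of its 2 tissues was asked with limma on the log2 fold enrichment over all 25639 BURs with peaks in the 4 lists, each list centred on its median. At an adjusted p (Benjamini-Hochberg) under 0.05, 1936 members (11.5%) were higher in thymocytes and 3264 (19.4%) were higher in brain. Over all BURs fitted, 27.0% were higher in thymocytes and 13.0% higher in brain. The fit used the same lists that chose the members, and members made up 65.5% of the BURs fitted. The members' shares beside those of all BURs fitted are therefore a description. The median log2 difference, thymocytes minus brain, was −0.09 in members, 0.17 over all BURs fitted and 0.66 in BURs of all 3 tissues, of which 64.1% were called for thymocytes and 0.421% for brain. The centring bears on this split. Without it, the median over all fitted BURs moved from 0.17 to −0.33, and 281 members were called higher in thymocytes and 7870 higher in brain. Leaving out 1 library leaves 1 for its tissue and less information on the spread. A changed count of calls then cannot show whether the calls lean on that library. In these refits the members' median log2 difference lay between −0.10 and −0.07. For named members below, a call lost or gained with a library left out is read with its log2 value for the same reason.

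**Figure D4:**
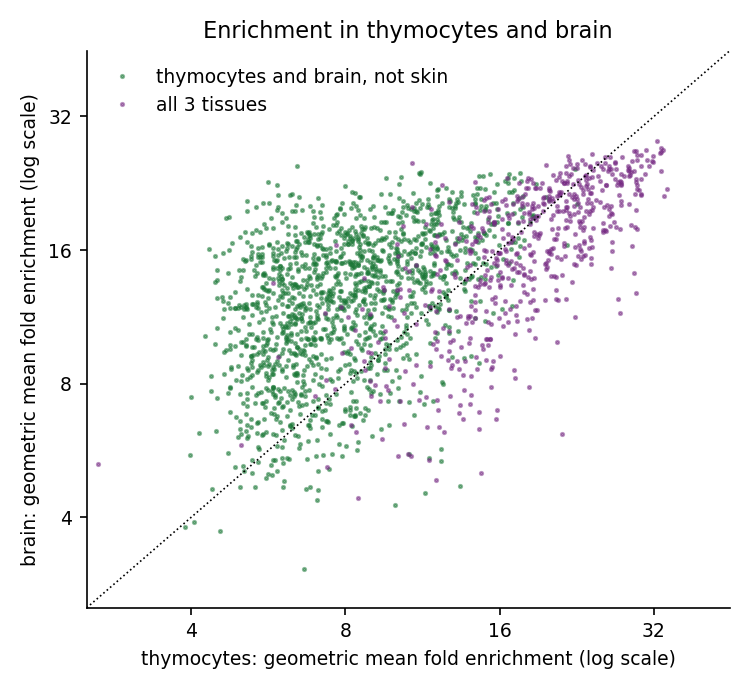
Geometric mean fold enrichment over the 2 thymocyte libraries (horizontal, log scale) against that over the 2 brain libraries (vertical, log scale), for 1500 BURs drawn at random from those bound in thymocytes and brain but not skin (green) and 600 from those bound in all 3 tissues (purple). The values are not centred and the dotted line marks equal enrichment, so that most green points lie above it, and the medians are 8.38 and 7.37 in thymocytes against 13.0 and 12.7 in brain.

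Members higher in thymocytes had, as a description, lower in vitro enrichment and a lower AT content than those higher in brain. The 1936 members higher in thymocytes had a median in vitro enrichment of 6.09, a length of 429 bp and an AT content of 69.7% around the summit, and 33.2% of their windows held ATATAT. The 3264 members higher in brain had 9.70, 534 bp, 72.7% and 39.1%, and the 11582 members without a call had 8.08, 489 bp, 71.3% and 37.4%. Their positions were closer to each other: a gene body was overlapped by 33.1% of the members higher in thymocytes and 33.5% of those higher in brain, and the nearest gene start was a median of 175 and 162 kb away.

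Chromosome X departed from the autosomes in this comparison. Its 837 members had a median log2 difference of 0.02, above the range of the autosomes from −0.13 to −0.02, with 15.8% called for thymocytes (9.04% to 13.2% on autosomes) and 13.6% for brain (17.5% to 22.2%). All fitted BURs of chromosome X did the same, with a median of 0.33 beside 0.11 to 0.23. The labels give no sex for these libraries, and the part of sex in this was not tested.

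The 5 members with the smallest p for thymocytes lay near Pou4f1, Csmd3, Olfr958, Prdx6 and Cdh7. The BUR at chr14:104730968-104731520, 136 kb from the start of Pou4f1, a transcription factor of sensory neurons, had enrichments of 12.2 and 12.4 in thymocytes and 3.86 and 4.06 in brain. The thymocyte values were far above the brain values in both libraries, and the centred log2 difference was 2.14 ± 0.15 (SE, n = 2 libraries a tissue, limma adjusted p = 0.00842). The BUR at chr1:163215390-163215790, 34.2 kb from Prdx6, a peroxiredoxin, had 14.1 and 16.7 in thymocytes and 5.56 and 4.42 in brain, and it stood out by its AT content of 54.4%. An intron of Cdh7, a cadherin of the nervous system, held a BUR with 11.6 and 11.7 in thymocytes and 5.66 and 5.22 in brain. Near Olfr958, an olfactory receptor gene, the values were 13.4 and 11.2 in thymocytes and 5.09 and 5.63 in brain. The fifth BUR, 606 kb from the start of Csmd3, had 8.67 and 8.65 in thymocytes and 3.87 and 3.69 in brain. In each, both thymocyte values lay above both brain values, and the limma adjusted p was 0.00842.

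The 5 members with the smallest p for brain lay near or in St8sia4, Fam83b, Spock3, 4922502B01Rik and Robo2. The BUR at chr1:97661709-97662268, 97.8 kb from St8sia4, which encodes an enzyme that adds polysialic acid to the neural cell adhesion molecule, had 5.08 and 4.16 in thymocytes and 20.6 and 20.7 in brain, so that the lowest brain value was far over both thymocyte values. Its centred log2 difference was −1.66 ± 0.15 (SE, n = 2 libraries a tissue, limma adjusted p = 0.00842). An intron of Robo2, a receptor for the Slit axon guidance proteins, held a BUR with 4.83 and 4.42 in thymocytes and 18.4 and 18.1 in brain. An intron of Spock3, a proteoglycan gene, held one with 5.08 and 4.42 in thymocytes and 19.9 and 18.7 in brain. Near Fam83b the values were 4.83 and 4.16 in thymocytes and 19.1 and 19.2 in brain, and near 4922502B01Rik they were 4.57 and 3.64 in thymocytes and 17.5 and 17.7 in brain. Their in vitro enrichments ranged from 11.6 to 18.1, while those of the 5 members called for thymocytes ranged from 2.97 to 6.63.

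The 10 members with the highest mean enrichment over the 4 libraries were all intergenic. The first, chr3:158895159-158895738, 263 kb from the start of Depdc1a, had 24.2 and 22.8 in thymocytes and 25.1 and 25.2 in brain, and 17.2 in vitro. The others lay nearest to Ano3, of the anoctamin family, Cntnap5b, of the contactin-associated family, Cylc2, 1700018B24Rik, the protocadherin gene Pcdh7, Kctd8, which encodes an auxiliary subunit of GABA-B receptors, Akirin2, Gm9931 and BC094916. Their thymocyte enrichments ranged from 18.5 to 25.5 and their brain enrichments from 23.0 to 26.9, and none of them overlapped a standard SATB1 or CTCF peak. Distances to the nearest skin peak ran from 5.39 kb near Ano3 to 188 kb near Cntnap5b. Of the 10, the BURs near Ano3 and Cntnap5b were called higher in thymocytes (log2 difference 0.53, limma adjusted p = 0.0303, and 0.52, adjusted p = 0.0391). Both calls were lost without centring (0.02 and 0.01) and without thymocyte replicate 2 (0.54 and 0.44), brain replicate 1 (0.51 and 0.45) or brain replicate 2 (0.54 and 0.58), and under quantile normalization both values took the other sign, −0.10 in each case. The call near Ano3 was also lost with −log10 q in place of fold enrichment (0.70), and that near Cntnap5b when a peak had to cover 50% of the BUR (0.43).

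At T-cell genes, 23 of 290 BURs (7.93%) in or within 10 kb of 49 annotated genes were members, a share near the 7.23% of the whole map, and 13 of the genes had one. Of the 23, 2 (8.70%) were higher in thymocytes and 3 (13.0%) higher in brain, beside 11.5% and 19.4% of all members. The most enriched of them, in an intron of Satb1, had 17.0 and 14.5 in thymocytes and 15.4 and 13.7 in brain and was called higher in thymocytes, as described with its locus. Zap70, a kinase of T-cell receptor signalling, had a member 22.6 kb from its start with 11.7 and 6.76 in thymocytes and 20.7 and 19.4 in brain, and the difference was not called (log2 −0.67 ± 0.24 SE, limma adjusted p = 0.0632). It was called for brain without centring (−1.18), under quantile normalization (−0.86), when a peak had to cover 50% of the BUR (−0.76) and without thymocyte replicate 1 (−1.001). That BUR overlapped a CTCF peak in thymocytes and in skin and lay 0.054 kb from a standard SATB1 peak. Ctla4, an inhibitory receptor of T cells, had one 8.49 kb from its start with 13.6 and 9.36 in thymocytes and 16.2 and 16.9 in brain. In an intron of Elmo1, an adaptor in Rac activation, the values were 15.1 and 12.5 in thymocytes and 16.7 and 15.8 in brain. A member in Ccr9, a chemokine receptor gene of thymocytes, had 12.9 and 10.0 in thymocytes and 15.4 and 14.9 in brain. The Ccr9 model of this annotation runs over 104 kb, and the BUR also lay in Gm17021. Its nearest gene start was that of Cxcr6, 28.9 kb away. At Zap70, Ctla4, Elmo1 and Ccr9, unlike at Satb1, both thymocyte values lay under both brain values before centring, and none of these 4 was called.

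At neuronal genes, 456 of 5700 BURs (8.00%) in or within 10 kb of 60 genes were members, a share near the 7.23% of the whole map. Of the genes 50 had a member, in a list that holds long genes such as Cntnap2, with 2241 kb and 381 BURs. Of the 456 members 46 (10.1%) were higher in thymocytes and 90 (19.7%) higher in brain, shares near the 11.5% and 19.4% of all members. The most enriched lay in introns of Cdh8, a type II cadherin, with 21.0 and 19.6 in thymocytes and 22.2 and 24.7 in brain, and of Dlg2, a postsynaptic scaffold, with 20.5 and 19.2 in thymocytes and 22.6 and 24.0 in brain. In an intron of Lrrc4c, a netrin-G ligand, the values were 17.3 and 17.4 in thymocytes and 26.1 and 26.6 in brain. An intron of Csmd3 held a member with 17.8 and 17.5 in thymocytes and 23.6 and 22.2 in brain. None of these 4 was called for either tissue. The Lrrc4c member (log2 difference −0.10) was called for brain without centring (−0.60), under quantile normalization (−0.66) and with −log10 q in place of fold enrichment (−0.87).

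At keratinocyte genes, 17 of 256 BURs (6.64%) near 40 genes were members, beside 7.23% of the map, although skin lacked a peak on them by the rule, and 7 of the genes had one. The count leans on the annotated Fgfr2, whose model in this annotation runs over 3009 kb and takes in Ikzf5, since 8 of the 17 members lay there. Of the 17, 2 (11.8%) were higher in thymocytes and 2 (11.8%) higher in brain, beside 11.5% and 19.4% of all members. Trp63, the transcription factor that the epidermal lineage depends on, held a member in an intron with 17.4 and 15.2 in thymocytes and 10.9 and 15.0 in brain. The thymocyte values exceeded both brain values, and the log2 difference was 0.85 ± 0.20 (SE, n = 2 libraries a tissue, limma adjusted p = 0.0205). The call was lost without centring (0.35), under quantile normalization (0.70), without thymocyte replicate 1 (0.82) or 2 (0.88) and without brain replicate 1 (0.61). Cldn1, a claudin of tight junctions, had a member 21.9 kb from its start with 16.4 and 12.0 in thymocytes and 20.1 and 20.7 in brain. Members at the desmocollin genes Dsc1 and Dsc3 had 10.2 and 7.54, and 7.10 and 8.51, in thymocytes, and both were called for brain without centring (−0.66 and −0.74), as was the Fgfr2 member (−0.70).

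Among the sensory receptor families, 272 of 3208 BURs (8.48%) at olfactory receptor (Olfr) genes were members, 18 of 505 (3.56%) at Vmn1r genes and 33 of 721 (4.58%) at Vmn2r genes. The vomeronasal families thus had fewer members per BUR than the map as a whole, 7.23%, and more BURs without a peak in any list, 69.5% and 67.4% beside 59.4%. Of the Olfr members, 38 (14.0%) were higher in thymocytes and 47 (17.3%) higher in brain, beside 11.5% and 19.4% of all members.

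Within genes, 5464 members lay in protein-coding gene bodies, in 2592 genes, of which 1653 held exactly 1 and 69 held 10 or more. Cntnap2, Lrp1b and Ptprd held 33 each, Fam190a 30, Csmd3 29, Lrrc4c 26, Dlg2 and Sgcz 25 each, Dcc 24, Cadm2 and Macrod2 22 each, Dgkb and Dmd 21 each and Pcdh15 20. Cntnap2 encodes a neurexin-related adhesion protein, Ptprd a receptor phosphatase, Dcc a netrin receptor and Dmd dystrophin. The 15 genes with most members are all long, from 753 to 2271 kb, beside a median of 15.4 kb over protein-coding genes, and held 150 to 447 BURs each. Members made up from 6.98% of the BURs in Dmd to 14.0% in Dgkb, a diacylglycerol kinase gene. In Cntnap2, 4 of the 33 were higher in thymocytes and 11 higher in brain. In Csmd3 none of the 29 was called for thymocytes and 6 for brain. Over all members 11.5% were called for thymocytes and 19.4% for brain. The order was the other way in Dlg2, with 5 of the 25 higher in thymocytes and 4 higher in brain. The same held in Macrod2, with 4 and 3 of the 22.

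**Figure D5:**
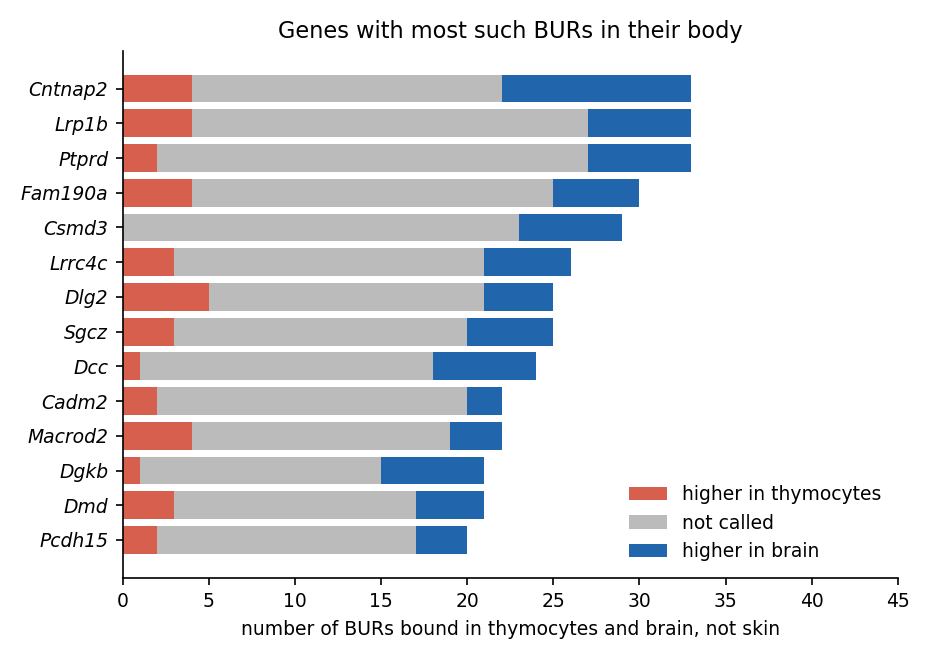
Number of BURs bound in thymocytes and brain but not skin in the body of genes with most of them, divided into those called higher in thymocytes (red), without a call (grey) and higher in brain (blue) by limma at an adjusted p under 0.05. The totals run from 33 in Cntnap2, Lrp1b and Ptprd to 20 in Pcdh15.

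Of 8 loci chosen for a closer description, Satb1 itself held the most members, 4 beside 3 at Gabra2. The 4 members were among 30 BURs within 50 kb of Satb1. All 4 lay inside its body, 77.4 kb from the first to the last. The intronic member at chr17:51937344-51937760 had 17.0 and 14.5 in thymocytes and 15.4 and 13.7 in brain, and was called higher in thymocytes (log2 difference 0.62 ± 0.15 SE, limma adjusted p = 0.0224). This call was lost without centring (0.11), under quantile normalization (0.47) and without brain replicate 1 (0.69) or 2 (0.55). Another intronic member, at chr17:51949289-51949665, had 8.70 and 6.42 in thymocytes and 19.7 and 16.1 in brain, and was called higher in brain (log2 difference −0.75 ± 0.18 SE, limma adjusted p = 0.0224). It was no longer called without thymocyte replicate 2 (−0.59) or brain replicate 1 (−0.62), or with −log10 q in place of fold enrichment (−0.96). The other two had 12.8 and 8.74 in thymocytes with 14.7 and 15.7 in brain, and 4.83 and 6.91 with 9.46 and 5.53, the latter overlapping an untranslated region. Between the first and last member lay 7 BURs with the opposite pattern, a peak in both skin replicates and none in thymocytes or brain. The gene body held 9 such BURs with skin enrichments from 5.49 to 29.6, of 284 (0.122%) in the whole map. Along the gene, the members thus lay among BURs bound in skin alone.

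Near Rag1 and Rag2, the recombinase genes of developing lymphocytes, 1 BUR was a member, chr2:101443807-101444401, 20.8 kb from the start of Rag2 in an intron of B230118H07Rik. It had 9.52 and 5.98 in thymocytes and 13.3 and 8.84 in brain, values that overlapped between tissues. Near Runx3, a transcription factor of the CD8 lineage, the member chr4:134744867-134745533 had 14.5 and 10.4 in thymocytes and 14.6 and 12.2 in brain, and it overlapped a peak of standard thymocyte replicate 1. It was called, for thymocytes, with −log10 q in place of fold enrichment (log2 difference 1.08, and 0.39 without a call otherwise). The 2 BURs near Foxp3 and the 5 near Cd4 had a peak in none of the 6 SATB1 urea lists. The study describes a SATB1-bound BUR at the Foxp3 locus by urea ChIP-seq, whereas only BURs of the map within 50 kb of the gene were counted here. Near Gabra2, a GABA-A receptor subunit gene, 3 of 38 BURs were members and 12 were brain-only. Near Gabrg1 none of 48 was a member and 12 were brain-only. Over the whole map 7.23% of the BURs were members and 16.1% were brain-only. The Gabra2 member at chr5:71346770-71347236 had 16.7 and 15.0 in thymocytes and 11.3 and 13.0 in brain, above brain in both thymocyte libraries, and was called higher in thymocytes (log2 difference 0.89 ± 0.16 SE, limma adjusted p = 0.0111), a call lost without centring (0.39) and without brain replicate 1 (0.77). The intronic Gabra2 member at chr5:71468799-71469527 had 11.4 and 8.32 in thymocytes and 18.5 and 19.9 in brain. It was not called (−0.48, limma adjusted p = 0.0712) but was called for brain without centring (−0.98), under quantile normalization (−0.64), with −log10 q (−1.10) and without thymocyte replicate 1 (−0.64).

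The 3 longest members were far over the median of 491 bp. The longest, 3976 bp in an intron of Rasgrf1, an exchange factor gene that is imprinted in mice, held a stretch of 246 bases without C or without G in the 300 bp around its summit. It had 7.37 and 5.20 in thymocytes and 12.9 and 12.5 in brain, lay 0.683 kb from a skin peak and overlapped a standard peak in both thymocyte replicates. The second, 2049 bp, lay 2.25 kb from Skint11 with 12.5 and 16.8 in thymocytes and 17.9 and 16.9 in brain, and the third, 1918 bp, lay 649 kb from Pabpc5 with 6.25 and 4.94 in thymocytes and 9.06 and 8.28 in brain. None of the 3 was called for either tissue. The Rasgrf1 member (log2 difference −0.54, limma adjusted p = 0.0541) was called for brain without centring (−1.04), with a −log10 q of at least 5 (−0.54) and without thymocyte replicate 1 (−0.72). The Skint11 member was called for thymocytes without thymocyte replicate 1 (0.52), and the Pabpc5 member for brain without centring (−0.64).

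A pair of readouts did not enter the rule, standard SATB1 ChIP-seq in thymocytes, in which sonicated soluble chromatin is used, and CTCF urea ChIP-seq. The standard lists still share their protein and tissue with lists of the rule, and standard replicate 2 also shares their antibody. Standard peaks overlapped 66 members (0.393%) in replicate 1, made with antibody ab109122, and 54 (0.322%) in replicate 2, made with 1583D. The same peaks overlapped 1.82% and 1.72% of the BURs of all 3 tissues, 0.150% and 0.163% of the brain-only BURs and 0.649% and 0.521% of all BURs. Within 3 kb, 4.67% and 2.87% of the members had a standard peak, beside 5.61% and 3.46% of all BURs. CTCF, a factor that marks chromatin loop ends, overlapped 42 members (0.250%) in thymocytes and 79 (0.471%) in skin, beside 1.17% and 1.56% of the BURs of all 3 tissues and 0.221% and 0.522% of all BURs. The 2 standard replicates gave the same order of the classes, and 1 CTCF list a tissue was used. The thymocyte CTCF library and standard replicate 1 are titled as thymus of an older age, in weeks, than the 13 days of their age label.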

How the data were processed

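The study measured SATB1 binding by urea ChIP-seq in thymocytes, brain and skin (2 libraries each) and by standard ChIP-seq in thymocytes (2 libraries), CTCF binding by urea ChIP-seq in thymocytes and skin (1 list each used here; a second thymocyte CTCF library was not analysed here), and binding of recombinant SATB1 to DNA in vitro (1 BUR map). Per the labels and the methods, the authors aligned reads with Bowtie2 2.3.1 to mm9 and called peaks in each library with MACS2 2.2.7. Each deposited list gives the position, the −log10 p and −log10 q of every peak, and its fold enrichment, which MACS2 takes as the ratio of summit signal to estimated local background. The deposited display score was not used. The authors did not scale the fold enrichment between libraries. The lists hold no read counts, so depth is unknown and no counting interval is given.

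Groups and replicate numbers are those of the labels; the study's supplement numbers the thymocyte replicates the other way round. Overlap meant at least 1 bp. The highest peak on a BUR gave its value. Thymocytes were compared with brain by limma 3.58.1 in R 4.3.3 on log2 fold enrichment without a pseudocount, two-sided, with Benjamini-Hochberg adjustment over the 25639 BURs with a peak in all 4 lists and a threshold of 0.05. The fit was tested on simulated data. Counts and medians came from Python with pandas, and genes and sequence from GENCODE vM1 and NCBIM37, the build of mm9. Near a listed gene meant within its body or 10 kb of it, and near a named locus within 50 kb.

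Named members were the 10 with the highest mean log2 fold enrichment, the 5 with the smallest p in each direction, the 5 most enriched at each gene list with at most 1 a gene, those within 50 kb of 8 loci (all if 5 or fewer), the 3 longest, the 15 genes with most members and the 5 densest bins of 1 Mb, with ties. The members and the gene lists were chosen with earlier results of these data known. The alternatives were other overlaps, −log10 q of at least 5, lists of equal size, skin peaks within 1 kb, no centring, quantile normalization, a pseudocount of 1, the mean over peaks, −log10 q in place of fold enrichment, replicate blocks and each library left out in turn. Of the T-cell list of 50 genes, Ptcra was not matched in the annotation. Values of 1 gene that this rule names are not reported here.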

Additional observations from a re-analysis of the deposited data

How the results depend on the processing

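The count of BURs bound in thymocytes and brain only was within 1.5 times of 16782 when 50% of the BUR or its in vitro summit had to be covered, with a −log10 q of at least 5 or with no skin peak within 1 kb. Leaving out 1 library drops a condition of the rule and so can only raise the count, which moved to between 16915 and 23816. With lists of equal size the count was 1166, since these by construction keep fewer thymocyte and brain peaks. The members called higher in thymocytes (1936) and in brain (3264) became 281 and 7870 without centring, and leaving out 1 library gave 809 to 1951 and 1226 to 3855. All members called both in this fit and in an alternative had the same direction. The 10 members with the smallest p stayed called in every alternative fit that held them. Under quantile normalization, Ano3 and Cntnap5b turned to −0.10 each and Gm9931 to −0.52 on the log2 scale; the cause was not tested. Thymocyte and brain libraries of the same replicate number share only a number: their deviations from the tissue means had a correlation of −0.17 across BURs. With a replicate block 1571 and 2697 members were called, the members near Ano3 and Cntnap5b no longer among them, and with the numbers crossed, an alternative chosen after seeing the data, 2333 and 3813, the Zap70 and Rasgrf1 members now among them. The peak lists hold no depth, so it is unknown how far depth limited the skin lists.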
